A study of Mus musculus with 6 samples.

Results

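The genes described here are those of the unfolded protein response and the heat shock response, the programs through which a cell adjusts its protein-folding capacity. A set of 30 genes was chosen by name. Of these, 29 had at least 1 probe set annotated to the gene alone, 66 probe sets in all among the 45037 of the array, and Hsp90ab1 was not analysed here. For each gene, the probe set with the highest mean over the 6 arrays was used. The 29 genes comprised 14 chaperones and folding enzymes of the endoplasmic reticulum (ER), 5 regulators of the unfolded protein response, 8 cytosolic chaperones and co-chaperones, and the 2 subunits of the mitochondrial chaperonin. The filter on low values was a geometric mean intensity of at least 50 over the 6 arrays. All 29 passed it and are among the 12248 genes that did so, of 18193 with a probe set annotated to them alone.

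The arrays measured ribosome-bound RNA, isolated by TRAP (pulling down a tagged ribosomal protein with the RNA it is translating), from the cortex of S100a10 bacTRAP mice of line ES691, first made on FVB and then crossed to C57BL/6 over 3 to 5 generations. The S100a10 control region drives the tag in this line, and per the series' design text it also labels some non-neuronal cells. The 3 fluoxetine samples came from mice whose drinking water held 0.167 mg/ml fluoxetine, an antidepressant that blocks serotonin reuptake, and 1% saccharine. The 3 vehicle samples came from mice given 1% saccharine alone, and both groups were treated for 15 to 18 days. The labels call the samples biological replicates without saying how many mice each held, so p-values measure the spread between these samples.

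The ER folds secreted and membrane proteins, and its lumen is crowded with chaperones. When unfolded proteins accumulate there, the sensors IRE1, PERK and ATF6 switch on the transcription factors XBP1, ATF4 and cleaved ATF6, which raise chaperone genes and, if the stress persists, the pro-apoptotic factor CHOP. In the cytosol, misfolded protein releases heat shock factor HSF1 to bind the promoters of the inducible heat shock genes. Neurons hold large amounts of constitutive Hsp70 and Hsp90 proteins, while the inducible Hsp70 genes are known for a strong response in glia and vessels.

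The promoters of both branches carry short elements through which these factors act, and they are shown because each branch is known for elements of its own. The ER stress response element (ERSE) was searched as CCAAT followed, 9 bases on, by CCACG. In the 250 bases before the annotated start, searched on both strands, it was found in 7 of the 12 ER chaperone genes with a RefSeq promoter entry (Hspa5, Hsp90b1, Calr, Canx, Pdia6, Dnajc3 and Creld2), in 0 of 5 regulators, 0 of 6 cytosolic genes and 0 of 2 mitochondrial genes. Of all 32851 promoter windows of that length, 0.113% held it. The CCAAT box, which is part of the ERSE, was in 12 of 12 ER chaperone genes, 3 of 5 regulators, 4 of 6 cytosolic genes, 0 of 2 mitochondrial genes and 33.9% of all windows. The related ERSE-II, ATTGG and CCACG with 1 base between them, occurred in Herpud1 alone among the members and in 0.03% of all windows. A core heat shock element, GAANNTTC, was found in 3 of 6 cytosolic genes (Hspa1a, Hspa1b and Hspb1), in 2 of 2 mitochondrial genes, in 0 of 12 ER chaperone genes and in 6.69% of all windows. These matches are not independent, since Hspa1a and Hspa1b have nearly identical windows and the mitochondrial match lies in a stretch that both genes share. The unfolded protein response element TGACGTGG was in 0 members and 0.563% of all windows, and the amino acid response element TGATGCAA, which ATF4 binds, in Herpud1 and 0.791% of all windows. A match is a description of the letters and was not tested as a binding site.

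In the 6 sequences below, taken from RefSeq (GRCm38.p6) and written 5′ to 3′ on the gene's strand, capitals mark the element. The first pair are ER chaperones with 1 and 2 ERSE matches, and Herpud1 carries the ERSE-II.

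Hspa5 (chr2:34771840-34772089, plus strand): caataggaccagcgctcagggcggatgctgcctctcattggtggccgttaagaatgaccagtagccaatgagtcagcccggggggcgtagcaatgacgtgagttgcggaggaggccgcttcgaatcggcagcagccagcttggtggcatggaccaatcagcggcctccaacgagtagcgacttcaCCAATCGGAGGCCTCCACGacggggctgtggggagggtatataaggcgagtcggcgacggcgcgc

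Hsp90b1 (chr10:86705445-86705694, minus strand): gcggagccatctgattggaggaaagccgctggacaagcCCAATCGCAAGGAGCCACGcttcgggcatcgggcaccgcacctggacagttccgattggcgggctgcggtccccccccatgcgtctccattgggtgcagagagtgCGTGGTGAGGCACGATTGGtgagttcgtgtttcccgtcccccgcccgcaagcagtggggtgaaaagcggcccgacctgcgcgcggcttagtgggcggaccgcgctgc

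Herpud1 (chr8:94386179-94386428, plus strand): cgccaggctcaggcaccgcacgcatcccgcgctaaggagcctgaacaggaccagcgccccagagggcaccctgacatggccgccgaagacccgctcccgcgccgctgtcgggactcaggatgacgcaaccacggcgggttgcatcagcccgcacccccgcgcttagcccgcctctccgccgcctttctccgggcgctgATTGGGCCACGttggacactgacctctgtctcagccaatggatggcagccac

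Hspa1a and Hspa1b are shown because their windows are almost the same, with 247 of 250 bases identical. Each has 1 core heat shock element, beginning 104 bases before the start.

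Hspa1a (chr17:34972157-34972406, minus strand): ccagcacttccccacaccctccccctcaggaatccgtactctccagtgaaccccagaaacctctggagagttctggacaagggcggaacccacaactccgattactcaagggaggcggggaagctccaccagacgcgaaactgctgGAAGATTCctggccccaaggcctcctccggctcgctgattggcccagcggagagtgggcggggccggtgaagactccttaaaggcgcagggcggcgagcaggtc

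Hspa1b (chr17:34959239-34959488, minus strand): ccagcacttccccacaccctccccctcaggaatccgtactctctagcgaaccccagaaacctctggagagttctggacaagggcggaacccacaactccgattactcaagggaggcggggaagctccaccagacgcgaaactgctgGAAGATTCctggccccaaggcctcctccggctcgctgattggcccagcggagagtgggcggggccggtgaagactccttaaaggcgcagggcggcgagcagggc

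The window of Hspe1 is shown because it is shared: Hspe1 and Hspd1 lie head to head, and their promoter entries of 300 bases overlap in 285 bases. Its heat shock element forms an unbroken run of 18 bases with 4 alternating units, beginning 89 bases before the start of Hspe1. An arrangement of 3 units (GAA, TTC and GAA, or TTC, GAA and TTC, each 2 bases apart) was in 0.466% of all windows.

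Hspe1 (chr1:55087898-55088147, plus strand): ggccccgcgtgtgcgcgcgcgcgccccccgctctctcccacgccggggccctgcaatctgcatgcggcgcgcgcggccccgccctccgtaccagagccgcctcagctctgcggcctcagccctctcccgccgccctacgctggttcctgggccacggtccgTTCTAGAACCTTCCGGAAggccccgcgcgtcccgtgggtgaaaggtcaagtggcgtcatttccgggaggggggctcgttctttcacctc

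No chaperone or stress response gene passed the test between fluoxetine and vehicle. In limma's test over 22326 probe sets with Benjamini-Hochberg adjustment, 0 of the 29 genes had an adjusted p under 0.05, where 0% of all probe sets did, and each adjusted p was 0.999. No member had an unadjusted p under 0.05 either, where 2.66% of all tested genes (and 2.52% of probe sets) did, and the smallest was 0.126, for Dnajb1. On the log2 scale, 12 members were higher and 17 lower in the fluoxetine arrays, with a median difference of −0.04. Across all 12248 tested genes 68.5% were lower and the median was −0.06, so the members' split was read against that share. With the arrays quantile normalized, 13 of the 29 members and 50.7% of all tested genes were lower, and with their medians aligned, 12 members and 50.6% of all tested genes. In RNA pooled from many cells, fewer cells of a type and less RNA per cell cannot be told apart.

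The intervals show what size of change these arrays could have missed. The 95% interval of the difference lay within ±0.5 in log2 for 18 of the 29 genes and within ±1 for 28, Hspa1b being the exception. Standard errors of the difference ran from 0.11 to 0.46.

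**Figure D1:**
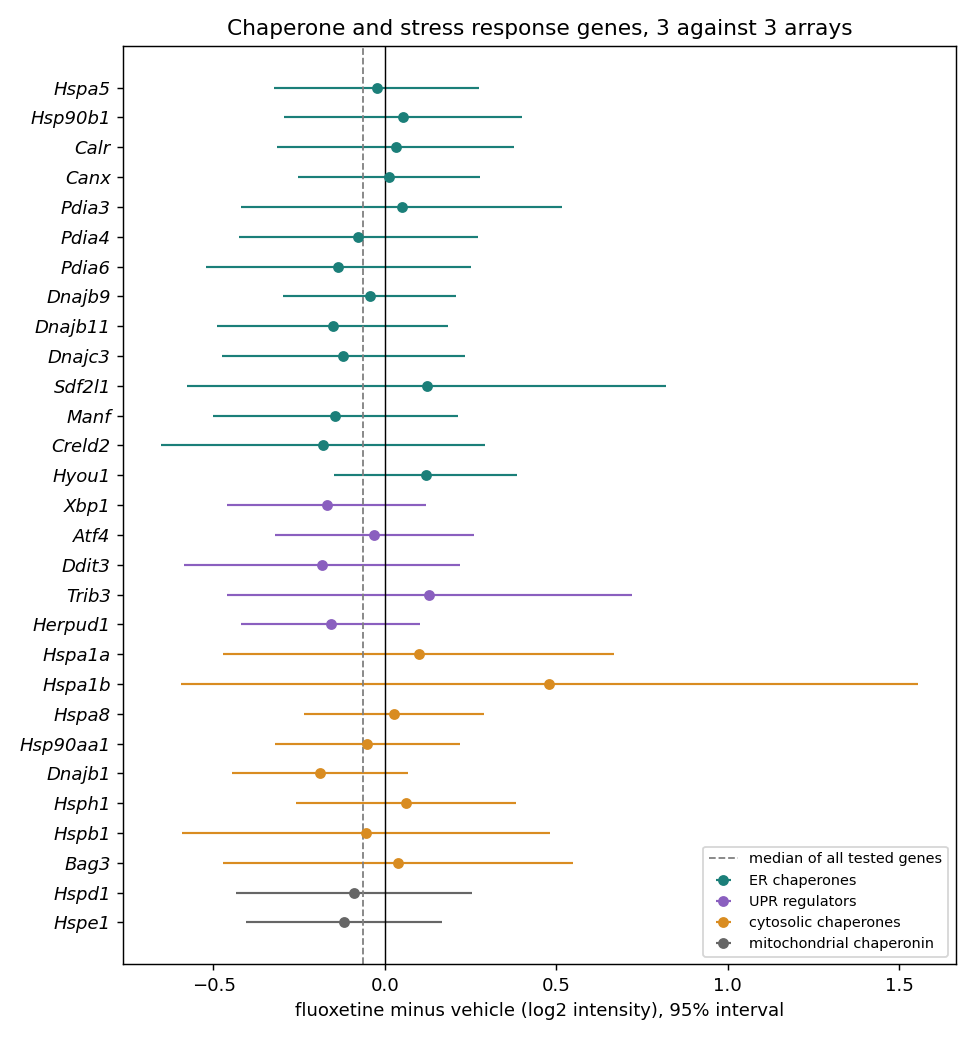
Difference between fluoxetine and vehicle (log2 intensity) for each of the 29 genes, in 4 groups by role; points are the differences, bars the 95% intervals from limma with 3 arrays a group, and the dashed line the median of all tested genes (−0.06). Every interval includes 0, and that of Hspa1b is the widest (−0.59 to 1.55).

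Among the ER chaperones, 6 were higher and 8 lower in log2 with fluoxetine, 0 of 14 passed limma's test, and the median difference was −0.03 (0.037 once the arrays were quantile normalized, and 0.026 with their medians aligned). Hspa5, the ER Hsp70 known as BiP that both folds proteins and holds the stress sensors silent, measured 14.18, 13.86 and 13.88 in the fluoxetine arrays and 13.97, 14.05 and 13.97 in the vehicle arrays (log2 intensity). The vehicle values lay inside the range of the fluoxetine values. The difference was −0.02 ± 0.13 (SE), a fold of 0.984 with a 95% interval of 0.80 to 1.21, and it turned to 0.042 and 0.037 under the quantile and median scalings.

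Hsp90b1, the ER Hsp90 known as GRP94, measured 12.53, 12.95 and 12.90 with fluoxetine and 12.80, 12.81 and 12.61 with vehicle in log2. It ran against Hspa5, being the lowest on fluoxetine 1, where Hspa5 was highest. Hyou1, a large Hsp70 relative that renews the nucleotide on BiP, measured 10.65, 10.56 and 10.50 against 10.39, 10.40 and 10.57 and differed by 0.12 ± 0.11 (log2, SE), the groups overlapping through vehicle 3. Its second tested probe set was higher too, by 0.31.

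Calr and Canx encode calreticulin and calnexin, the lectin chaperones that retain glycoproteins until they fold. Calr measured 14.43, 13.99 and 14.29 with fluoxetine and 14.09, 14.20 and 14.32 with vehicle, and Canx differed by 0.01 ± 0.11 (log2, SE). Both fluoxetine 1 and fluoxetine 2, the highest and the lowest array for Calr, were outside the vehicle range, on opposite sides. The interval for Canx allowed folds of 0.839 to 1.21.

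The protein disulphide isomerases form and rearrange disulphide bonds. Pdia6, which binds BiP, measured 11.70, 11.13 and 11.25 with fluoxetine against 11.54, 11.47 and 11.47 with vehicle in log2 (difference −0.14 ± 0.16, SE). It was highest on fluoxetine 1 and lowest on the other fluoxetine arrays. Without fluoxetine 1 it differed by −0.31 (unadjusted p = 0.039, adjusted p = 0.988 in limma). Leaving out the highest value lowers the difference by construction, so the smaller p is no support for a decrease. In the fits without single arrays, 319 to 1207 probe sets had an unadjusted p under 0.05. Pdia3, the isomerase partner of the lectins, differed by 0.05 ± 0.20, with its highest and lowest values both on vehicle arrays (10.29 and 9.57). Pdia4 was dim, at 6.37 ± 0.15 in log2 with fluoxetine and 6.45 ± 0.21 with vehicle (n = 3 each, SD), close to the filter at 5.64.

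The J-domain proteins hand clients to BiP. Dnajb9 was among the steadiest genes, at 12.53 ± 0.08 in log2 with fluoxetine and 12.57 ± 0.05 with vehicle (n = 3 each, SD), and 94.9% of tested probe sets had a larger residual SD. Dnajb11 measured 10.27, 9.81 and 9.98 against 10.10, 10.21 and 10.20, a difference of −0.15 ± 0.14 (log2, SE) in which only fluoxetine 1 lay above the vehicle arrays. Dnajc3, which also restrains the PERK kinase, differed by −0.12 ± 0.15, and its 3 other tested probe sets were lower too.

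The remaining ER members are soluble proteins induced by ER stress. Creld2 measured 10.04, 9.95 and 9.33 with fluoxetine and 9.82, 10.01 and 10.03 with vehicle in log2 (difference −0.18 ± 0.20, SE), and fluoxetine 3 alone stood below the other arrays. Manf, a secreted protein that protects neurons, measured 11.68, 11.68 and 11.39 against 11.49, 11.84 and 11.85 (difference −0.14 ± 0.15). Sdf2l1, a partner of the Dnajb11 product, was dim and scattered, with 6.68, 6.24 and 5.57 against 5.67, 6.30 and 6.16. Its residual SD of 0.459 was exceeded by 6.75% of tested probe sets, and its interval ran from −0.58 to 0.82 in log2.

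Of the 5 regulators, 1 was higher and 4 were lower in log2 with fluoxetine, 0 of 5 passed limma's test, and the median difference was −0.16. Herpud1, a membrane component of ER-associated degradation, measured 11.69, 11.74 and 11.61 with fluoxetine and 11.74, 11.83 and 11.94 with vehicle. The groups did not overlap, but by a margin of under 0.01 between fluoxetine 2 and vehicle 1. The difference was −0.16 ± 0.11 (log2, SE, unadjusted p = 0.197), and the second probe set differed by −0.0089. Of the 29 members, 2 (6.90%) had groups that did not overlap, Herpud1 and Dnajb1, against 8.31% of all tested genes.

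Xbp1, the transcription factor activated by IRE1 splicing, measured 13.70, 13.48 and 13.44 with fluoxetine and 13.61, 13.72 and 13.80 with vehicle, a difference of −0.17 ± 0.12 (log2, SE). Fluoxetine 2 and 3 lay below every vehicle array and fluoxetine 1 among them. Its 3 other probe sets were lower as well, with differences of −0.14, −0.16 and −0.08. Spliced and unspliced Xbp1 RNA were not told apart here.

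Atf4, the effector of PERK, measured 14.13, 14.37 and 14.07 against 14.24, 14.27 and 14.15 in log2, and its difference of −0.03 ± 0.12 (SE) turned to 0.025 and 0.029 under the quantile and median scalings. Ddit3, which encodes CHOP, measured 8.88, 8.51 and 8.57 against 8.54, 9.02 and 8.94 (difference −0.18 ± 0.17). Both genes overlapped between groups. Trib3, a pseudokinase gene switched on by ATF4 and CHOP, was dim, with 6.61, 5.86 and 5.74 against 5.81, 6.23 and 5.77, and fluoxetine 1 alone was above the vehicle range.

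Among the cytosolic genes, 5 were higher and 3 lower in log2 with fluoxetine, 0 of 8 passed limma's test, and the median difference was 0.03. Without fluoxetine 1 all 8 were lower (median −0.049), as were 26 of the 29 members and 73.0% of all tested genes, and again 0 passed. Without vehicle 1, 5 of the 8 and 22 of the 29 were lower. Over all removals of single arrays, 2 to 8 of the 8, 14 to 26 of the 29 and 57.2% to 73.0% of all tested genes were lower. Many members read highest on fluoxetine 1, so a downward shift without it is built in.

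Hspa1b, an inducible Hsp70 gene, varied most. Its values were 13.77, 11.93 and 12.71 with fluoxetine and 11.79, 12.57 and 12.61 with vehicle (log2 intensity). Fluoxetine 1 was far above the other arrays, while fluoxetine 2 and vehicle 1 were the lowest, so the groups overlapped widely. The difference was 0.48 ± 0.46 (SE, unadjusted p = 0.327), a fold of 1.39 with a 95% interval of 0.662 to 2.94, and −0.0041 without fluoxetine 1.

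The other 2 probe sets of Hspa1b followed the same order of arrays, reading 12.04 and 11.17 on fluoxetine 1 and 9.82 and 8.87 on vehicle 1. Only 1.49% of tested probe sets had a larger residual SD than the 0.73 of Hspa1b. Hspa1a, its near-identical neighbour, measured 10.80, 10.02 and 9.97 with fluoxetine and 9.94, 10.19 and 10.37 with vehicle (difference 0.10 ± 0.24, log2, SE). Fluoxetine 1 was again the highest and vehicle 1 the lowest. Since the genes are copies, a probe set of one may also bind RNA of the other, and their values are uncertain as separate measurements. Without fluoxetine 1 the Hspa1a difference was −0.17.

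Hspb1, a small heat shock protein gene, measured 12.23, 11.47 and 11.43 with fluoxetine against 11.59, 11.84 and 11.87 with vehicle in log2. Fluoxetine 1 stood above and fluoxetine 2 and 3 below all vehicle arrays. The difference was −0.06 ± 0.23 (SE), and it turned to 0.017 and 0.0048 under the quantile and median scalings. Without fluoxetine 1 it was −0.32 (unadjusted p = 0.059 in limma), a shift that leaving out the highest value brings by construction. Bag3, a co-chaperone that directs clients to autophagy, measured 9.24, 9.25 and 8.53 against 8.77, 9.06 and 9.07, with fluoxetine 3 below the vehicle range and the other fluoxetine arrays above it.

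**Figure D2:**
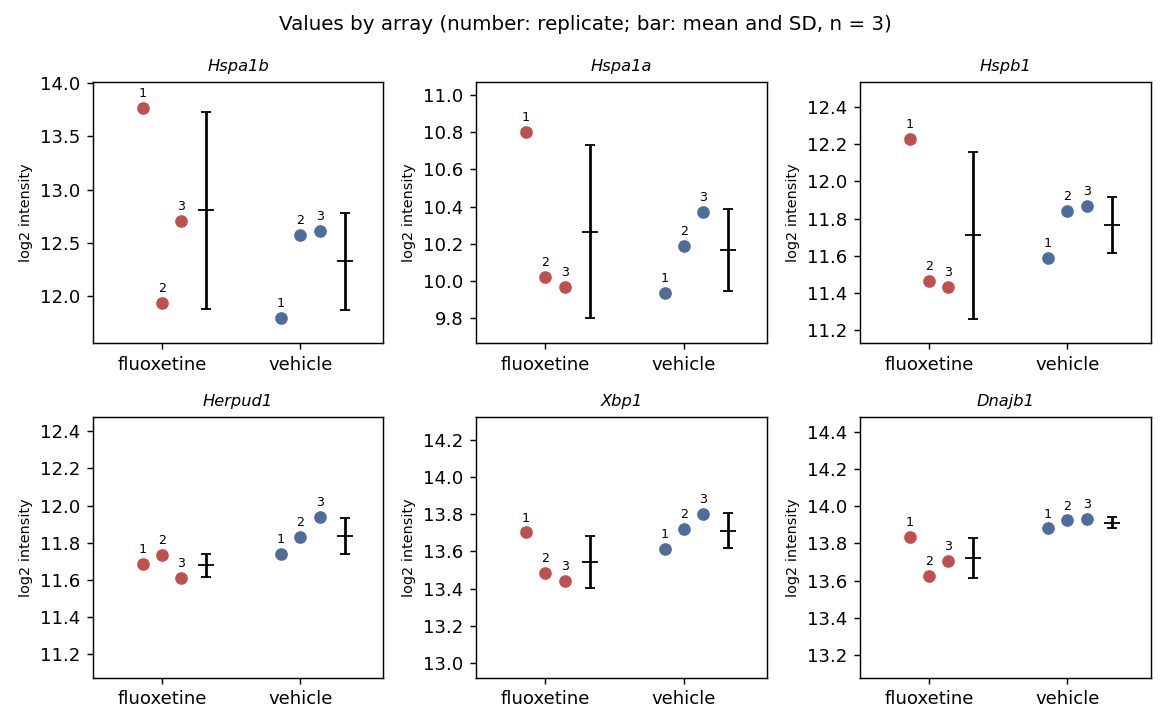
Log2 intensity of 6 genes on each array, fluoxetine at the left and vehicle at the right of each panel; points are arrays with their replicate number, and the bars show the mean and SD (n = 3 each). Fluoxetine 1 is the highest array for Hspa1b (13.77), Hspa1a (10.80) and Hspb1 (12.23), whereas Herpud1 and Dnajb1 have groups that do not overlap.

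Dnajb1, the main J-domain partner of cytosolic Hsp70, was the member with the smallest p. It measured 13.84, 13.63 and 13.71 with fluoxetine and 13.88, 13.92 and 13.93 with vehicle, so every fluoxetine array lay below every vehicle array. The difference was −0.19 ± 0.11 (log2, SE), a fold of 0.877 with a 95% interval of 0.733 to 1.05. Its second probe set had the opposite sign, differing by 0.014.

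The remaining cytosolic genes include the main Hsp70 and an Hsp90. Hspa8, the constitutive Hsp70, measured 16.10, 15.91 and 16.12 with fluoxetine and 16.03, 16.01 and 16.01 with vehicle in log2, and its interval allowed folds of 0.85 to 1.22. Hsp90aa1, the inducible cytosolic Hsp90, differed by −0.05 ± 0.11 (log2, SE), or 0.0096 after the median shift. Hsph1, a heat-inducible exchange factor for Hsp70, measured 14.65, 14.25 and 14.58 against 14.42, 14.44 and 14.43, with the vehicle arrays close together inside the fluoxetine range.

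Hspd1 and Hspe1, the chaperonin and its lid in the mitochondrial matrix, share the promoter shown above. Hspd1 measured 13.17, 12.74 and 13.02 with fluoxetine and 13.03, 13.20 and 12.96 with vehicle in log2. Hspe1 measured 12.82, 12.68 and 12.63 against 12.68, 12.92 and 12.88. Both were highest on vehicle 2, and they differed by −0.09 ± 0.15 and −0.12 ± 0.12 (SE).

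The ER and cytosolic chaperones were then set side by side. The difference of their list medians was −0.067 in log2, with the ER list the lower, and this is given without a test. Averaged over the list, the 14 ER genes measured 11.06, 10.91 and 10.81 in the fluoxetine arrays and 10.90, 10.97 and 11.01 in the vehicle arrays. The 8 cytosolic genes measured 13.22, 12.70 and 12.80 in the fluoxetine arrays and 12.71, 12.93 and 12.93 in the vehicle arrays. In both lists fluoxetine 1 lay above all vehicle arrays.

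Within each array, the ER mean minus the cytosolic mean was −2.17, −1.79 and −1.99 with fluoxetine and −1.81, −1.96 and −1.92 with vehicle. Only its spread between arrays can be read, since levels of different probe sets are not on a common scale. The gap differed more among the fluoxetine arrays than between the group means, which were −1.98 ± 0.19 and −1.90 ± 0.08 (SD, n = 3 each). Without Hspa1a and Hspa1b the means were −2.44 ± 0.07 and −2.43 ± 0.04, and the difference of the list medians was −0.022. The difference of the group means over all 8 cytosolic genes, −0.087, was smaller than the SD of the fluoxetine arrays and slightly larger than that of the vehicle arrays. For each array, the median deviation of each list from the vehicle means was also taken. The ER minus the cytosolic median deviation had an SD of 0.033 over the vehicle arrays. The difference of the list medians, −0.067, comes from group means and not from single arrays, so this SD does not measure its uncertainty. The fluoxetine arrays were more scattered. Their median deviations from the vehicle means were 0.087, −0.044 and −0.12 for the ER list and 0.25, −0.16 and −0.071 for the cytosolic list. By these medians the ER list was the lower on fluoxetine 1 and 3 and the higher on fluoxetine 2.

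**Figure D3:**
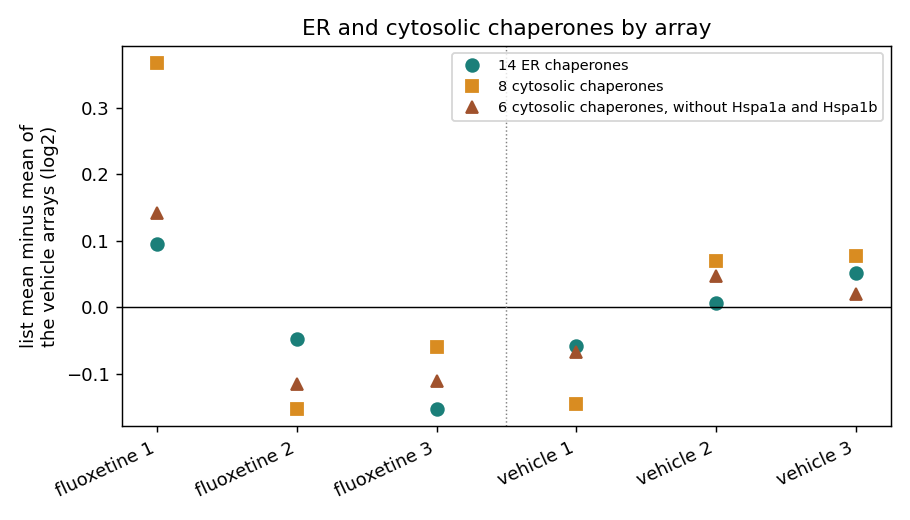
Mean log2 intensity of the ER chaperones (circles), the cytosolic chaperones (squares) and the cytosolic chaperones without Hspa1a and Hspa1b (triangles) on each array, minus the mean of the vehicle arrays. Fluoxetine 1 is at 0.095, 0.37 and 0.14, while fluoxetine 2 and 3 lie at or below −0.048 in all 3 lists.

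The fluoxetine arrays differed among themselves. Fluoxetine 1 was the highest of the 6 arrays for 12 of the 29 members (41.4%), against 25.6% of all tested genes. It was also the highest for 52 of the 150 further pathway genes, with uneven shares. These included 13 of 27 other ER folding enzymes, 8 of 19 genes of ER-associated degradation and 7 of 18 cofactors of Hsp90 and Hsp70. Other shares were 4 of 8 cytosolic chaperonin subunits, 6 of 19 translocation genes and 2 of 8 ER stress sensors. The rest were 4 of 15 targets of PERK and ATF4, 3 of 11 other mitochondrial genes, and Hsbp1. For other Hsp70, J-domain and small heat shock genes the count was 4 of 24, a smaller share than over all tested genes. Fluoxetine 2 or 3 was the lowest for 22 members (75.9%), against 52.3% of all tested genes. The median of fluoxetine 1 minus the mean of the other 5 arrays was 0.16 for the members and 0.025 for all tested genes (log2), and these are descriptions with no test. The excess on fluoxetine 1 was 1.45 for Hspa1b, 0.73 for Trib3, 0.70 for Hspa1a, 0.69 for Sdf2l1 and 0.59 for Hspb1.

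**Figure D4:**
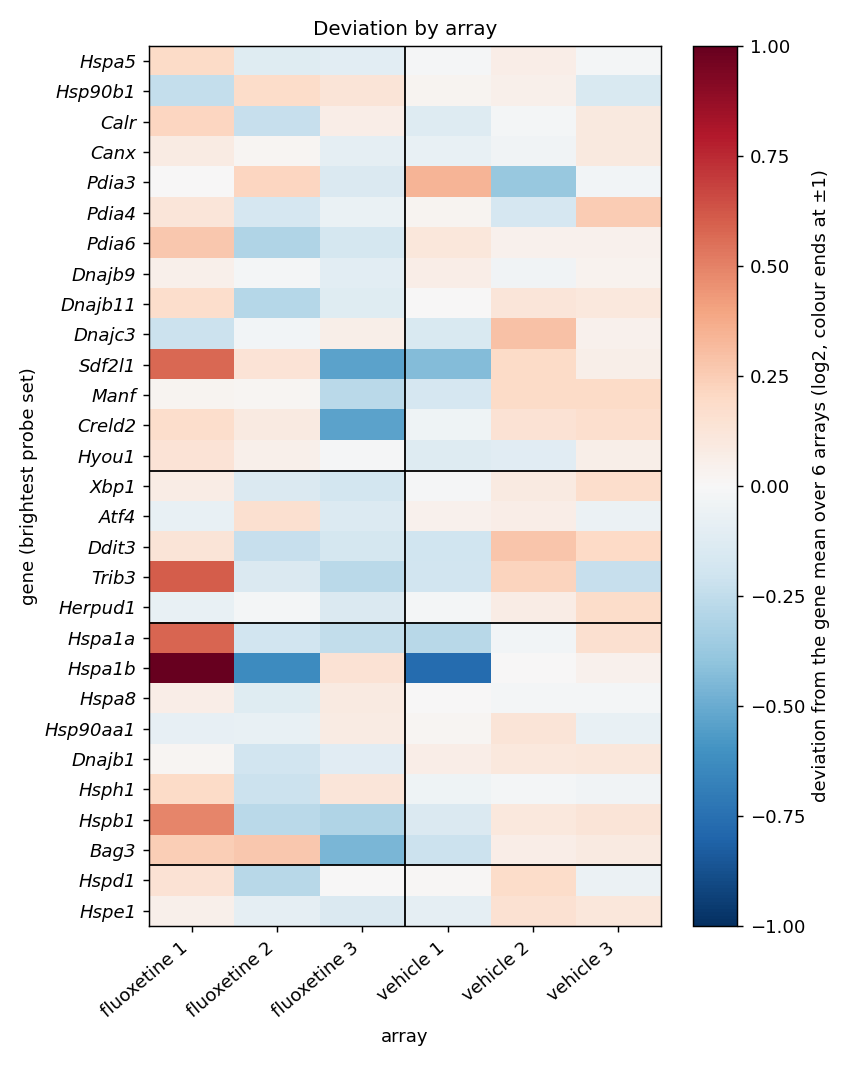
Deviation of each gene from its own mean over the 6 arrays (log2, colour scale ending at ±1), with rows grouped as ER chaperones, regulators, cytosolic chaperones and mitochondrial chaperonin, and with the fluoxetine arrays left of the vehicle arrays. Fluoxetine 1 is mostly above the mean (highest for 12 of the 29 genes) and fluoxetine 2 and 3 are mostly below it (lowest for 22).

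Marker lists of other cells differed on the same array. Of 12 astrocyte markers, 7 were higher with fluoxetine (against 31.5% of all tested genes) and 6 had their highest value on fluoxetine 1 (against 25.6%). Their summed intensity ran from 71741 to 83876 in the fluoxetine arrays and from 69819 to 78641 in the vehicle arrays, with fluoxetine 1 the highest. Gfap, the astrocyte filament gene, read 12.13, 4.49 and 9.02 with fluoxetine and 4.70, 5.24 and 5.67 with vehicle in log2. Its vehicle mean, 5.20, and fluoxetine 2 lay below the filter at 5.64. Fluoxetine 1 and 3 read highest for Gfap and for Hspa1b. The astrocyte sum was 72328 on fluoxetine 3, and 74428 and 78641 on vehicle 2 and 3. The mean log2 of the 12 markers, Gfap among them, was 12.01, 10.96 and 11.59 with fluoxetine. With vehicle it was 11.03, 11.14 and 11.17, so the place of fluoxetine 3 depends on the summary. A sum is weighted to the brightest genes. Of the 12 markers, 5 were lower with fluoxetine. Any link between Gfap and Hspa1b was not tested.

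Of 14 immediate early genes, which report recent neuronal activity, 14 were lower with fluoxetine and 9 were lowest on fluoxetine 1. In limma 7 of them had an unadjusted p under 0.05 and 0 passed after adjustment. Over all tested genes 68.5% were lower, 17.0% were lowest on fluoxetine 1 and 2.66% had an unadjusted p under 0.05. The summed intensity of the immediate early genes was 57195 to 76162 in the fluoxetine arrays and 83556 to 109457 in the vehicle arrays. Of 6 measured transcripts that stay in the nucleus or code for no protein, taken as signs of RNA quality, 5 were lower, and their summed intensity was 884.5 to 1549 in the fluoxetine arrays and 964.8 to 2020 in the vehicle arrays. Markers of meninges and choroid plexus were higher for 5 of 6, with 4 highest on fluoxetine 1 and sums of 10388 to 13094 in the fluoxetine arrays and 9471 to 11465 in the vehicle arrays. Markers of pericytes and smooth muscle were lower for 5 of 5, with sums of 6889 to 9205 in the fluoxetine arrays and 8568 to 13485 in the vehicle arrays. No marker was listed at 0 on any array. The part of these cells, of neuronal activity or of RNA quality in the chaperone values was not tested.

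Markers were also read beside the label of the samples. All 6 arrays hold TRAP RNA and none holds unbound or whole-tissue RNA, so enrichment of S100a10 cells cannot be measured here. S100a10 measured 15.08 ± 0.09 with fluoxetine and 15.15 ± 0.07 with vehicle in log2 (SD, n = 3 each). Neuronal markers lower with fluoxetine were 5 of 7 for pyramidal neurons, 6 of 7 for layer 5 and 6 of 8 for inhibitory neurons. Over all tested genes 68.5% were lower. Of the neuronal markers 0 passed limma's test, and 1, Vip, had an unadjusted p under 0.05, where 2.66% of all tested genes did. Of 12 astrocyte markers 1 did (Sox9, 0.58 ± 0.11 in log2, SE, unadjusted p = 0.0011, adjusted p = 0.999). So did 1 of 5 for pericytes and smooth muscle, 2 of 6 for meninges and choroid plexus, and 1 of 6 nuclear or non-coding transcripts. The count was 0 for oligodendrocyte, microglial and endothelial markers. Pyramidal neuron markers had 7 of 8 listed genes above the filter. RNA of other cells was also present, with 12 of 12 astrocyte, 6 of 8 oligodendrocyte, 5 of 8 microglial and 5 of 8 endothelial markers above it. Of the astrocyte markers, Gfap passed only through fluoxetine 1 and 3, since its vehicle mean, 5.20, was below the filter at 5.64. Cldn5, which defines endothelium, was near the filter at 5.70 ± 0.28 with fluoxetine and 5.93 ± 0.04 with vehicle. The arrays had median intensities of 47.3 to 48.6, below the filter, and upper quartiles of 498.4 (fluoxetine 2) to 574.3 (vehicle 2), and the correlation between any 2 arrays in log2 over the probe sets was 0.993 to 0.997.

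Other genes of protein folding were read in the same way. Of 161 further genes listed for these pathways, 150 were measured, 46 higher and 104 lower in log2, with a median difference of −0.05. The share higher was 30.7%, against 31.5% of all tested genes. In limma 0 passed the test or had an unadjusted p under 0.05, which 2.66% of all tested genes had. Groups did not overlap for 8 of the 150, against 8.31% of all tested genes. The genes named next are the 3 with the smallest p in each list.

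Among the ER stress sensors and their activators (2 higher, 6 lower), Mbtps1, the protease that cuts ATF6, differed by −0.25 ± 0.13 (log2, SE), Atf6 by −0.16 ± 0.14 and Eif2ak3, which encodes PERK, by −0.10 ± 0.11. Targets of PERK and ATF4 had 5 higher and 10 lower. In that list Ppp1r15a, the phosphatase subunit that ends the PERK response, measured 7.62, 7.63 and 7.30 with fluoxetine and 7.61, 8.18 and 7.82 with vehicle, Atf3 differed by −0.35 ± 0.24 and Atf5 by −0.19 ± 0.11. The groups overlapped for Ppp1r15a, and did not for Atf5, a factor of the same family as Atf4.

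Other ER folding enzymes divided evenly, 13 higher and 14 lower. The oxidase gene Ero1b differed by −0.24 ± 0.14 (log2, SE), the calcium-binding protein gene Rcn2 by 0.23 ± 0.14 and the isomerase gene Tmx1 by −0.18 ± 0.11. ER-associated degradation had 7 higher and 12 lower, with the ubiquitin-conjugating enzyme gene Ube2g2 at −0.20 ± 0.13, Herpud2 at −0.24 ± 0.19 and Derl1, of the export channel, at −0.18 ± 0.14. The translocation machinery had 6 higher and 13 lower, with the translocon-associated Ssr3 at 0.17 ± 0.10, the signal peptidase subunit Spcs3 at −0.20 ± 0.14 and the signal recognition particle subunit Srp14 at −0.12 ± 0.11.

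On the cytosolic side, other Hsp70, J-domain and small heat shock genes had 4 higher and 20 lower in log2. Hspb6, a small heat shock protein best known from muscle, averaged 8.97 ± 0.90 with fluoxetine and 8.22 ± 0.25 with vehicle (SD, n = 3 each), and fluoxetine 1 was 1.68 above the mean of the other 5 arrays. Hspa12b, an Hsp70 relative of endothelium, measured 6.29, 7.37 and 6.86 against 7.30, 7.36 and 7.35, with fluoxetine 1 the lowest. Hspa2 differed by −0.27 ± 0.14 (log2, SE).

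Cofactors of Hsp90 and Hsp70 had 3 higher and 15 lower, with Bag5 at −0.20 ± 0.11 (log2, SE), Ppp5c at −0.17 ± 0.10 and Ahsa2 at −0.22 ± 0.14. The cytosolic chaperonin had 2 of 8 subunits higher and differences between −0.079 and 0.021. The other mitochondrial chaperones and proteases had 3 higher and 8 lower, with Clpp at −0.20 ± 0.13, Dnaja3 at −0.21 ± 0.18 and Grpel1 at −0.08 ± 0.11. Of the heat shock factor list only Hsbp1, a binding protein of HSF1, was measured (0.03 ± 0.13).

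Several members had more than 1 probe set, which gives a further look at each difference. Of the 17 genes with at least 1 further tested probe set, 11 had all of them in the direction of the brightest one and 6 did not (Hsp90b1, Canx, Pdia3, Atf4, Hsp90aa1 and Dnajb1). Hsp90b1 differed by 0.05 and −0.19 in its 2 probe sets, with standard errors of 0.15 and 0.20. The probe sets of Calr (0.03, 0.16 and 0.10) and of Hspa1b (0.48, 0.68 and 0.81) had 1 direction each, and none of them passed.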

How the data were processed

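The values are intensity on a linear scale, deposited by the authors with 1 column for each of 6 arrays. Per the submitters' processing notes they were normalized with GCRMA (version not stated). Per the labels' protocols, 15 ng of RNA went through 2-cycle amplification for Affymetrix arrays. GCRMA models background from probe sequence and compresses low intensities, so changes of dim genes can be understated, which was not tested here.

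From the deposited intensity, 64 control probe sets were left out and log2 was taken with no offset. Probe sets with a geometric mean of at least 50 (22326) were tested by a linear model without a block and moderated, two-sided statistics in limma 3.58.1 (R 4.3.3). The p-values were adjusted over all of them by Benjamini and Hochberg's method. The code was tested on simulated data. Gene names came from the platform annotation, where 34945 probe sets had 1 symbol, 932 several and 9160 none. RefSeq promoters matched 25 of the 30 genes. The members and gene lists were chosen with earlier results of these data known. All members are named, with the 3 smallest p of each further list. Genes named beside them as markers were S100a10, Gfap and Cldn5, and also Vip and Sox9, which were picked for their unadjusted p. The alternatives were 11 processing choices fixed with the design, and 1 chosen after seeing the data, which leaves Hspa1a and Hspa1b out of the cytosolic list.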

Additional observations from a re-analysis of the deposited data

How the results depend on the processing

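No chaperone or stress response gene, and no probe set, passed limma's adjusted threshold under the deposited normalization or any alternative, and the smallest adjusted p of a member was 0.742 (without the filter). Probe sets with an unadjusted p under 0.05 numbered 563, but 2631 without the filter, 371 with a gene's probe sets averaged, 350 with the replicate number as a block and 319 to 1207 when single arrays were left out. With the replicate block 0 of the 29 members were called, so it changed no call. The list medians were the same, which the balanced design fixes in advance. Deviations of samples with the same number correlated at −0.25, −0.027 and −0.50, and those with different numbers at −0.27 to 0.43. With 3 centred arrays a group, such correlations cannot show whether samples were prepared in pairs. The ER median of −0.034 in log2 was 0.037 after quantile normalization, −0.11 without both fluoxetine 1 and vehicle 2, and −0.10 to 0.0034 without single arrays, the cytosolic median ranging from −0.049 to 0.081. The difference of these medians, −0.067, was −0.12 with probe sets averaged, −0.12 without probe sets that may match several transcripts, −0.022 without Hspa1a and Hspa1b, and −0.10 to −0.016 without single arrays. The causes of these moves were not tested.

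Signs of single differences, none of them called, also turned. After quantile normalization Hspa5 was at 0.042, Dnajb9 at 0.032, Atf4 at 0.025 and Hspb1 at 0.017. After the median shift Hspa5 was at 0.037, Dnajb9 at 0.016, Atf4 at 0.029, Hsp90aa1 at 0.0096 and Hspb1 at 0.0048. With probe sets averaged Hsp90b1 was at −0.067, Canx at −0.020 and Pdia3 at −0.0041, and Canx was at −0.028 without probe sets that may match several transcripts. Without both fluoxetine 1 and vehicle 2 Calr was at −0.068, Canx at −0.043, Pdia3 at −0.12, Dnajc3 at 0.072, Sdf2l1 at −0.0083, Atf4 at 0.024, Hspa1a at −0.16, Hspa8 at −0.0040, Hsp90aa1 at 0.029, Hsph1 at −0.011 and Bag3 at −0.031. Without single arrays the differences ranged from −0.13 to 0.032 for Hspa5, −0.027 to 0.18 for Hsp90b1, −0.067 to 0.15 for Calr, −0.027 to 0.063 for Canx, −0.13 to 0.23 for Pdia3, −0.18 to 0.031 for Pdia4, −0.14 to 0.42 for Sdf2l1, −0.31 to 0.042 for Creld2, −0.12 to 0.028 for Atf4 and −0.14 to 0.30 for Trib3. They ranged from −0.17 to 0.25 for Hspa1a, −0.0041 to 0.92 for Hspa1b, −0.013 to 0.095 for Hspa8, −0.10 to 0.00059 for Hsp90aa1, −0.017 to 0.19 for Hsph1, −0.32 to 0.082 for Hspb1, −0.085 to 0.28 for Bag3 and −0.18 to 0.028 for Hspd1. The number of arrays, 3 a group, limits the precision throughout.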
